A study of Homo sapiens with 4 samples.

Results

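The 33 genes described here make cholesterol and fatty acids or regulate that synthesis, and all are linked to the sterol regulatory element-binding proteins (SREBPs). They were chosen by symbol, with earlier results of these data known, from a list of sterol synthesis enzymes, SREBP regulators and fatty acid synthesis enzymes. Every one of the 33 was found once among the 35606 genes of the count table. Poly(A)-selected, directional RNA-seq libraries had been made from K562, an established human line from chronic myelogenous leukaemia that keeps erythroid traits. There were 2 libraries labelled JAZF1-SUZ12, from K562 cells expressing that fusion, and 2 labelled mock, also from K562. JAZF1-SUZ12 joins part of JAZF1, a partner of the NuA4/TIP60 acetyltransferase complex, to SUZ12, which belongs to the core of Polycomb repressive complex 2, and is known from endometrial stromal sarcoma. The labels state neither how the fusion was delivered nor what the mock cells received, nor whether the cells of a group were a pool or a clone. Nothing in them says that the libraries of a group came from separate cultures, so p-values measure only the spread between these libraries, which may be technical. The comparison of the fusion with mock asks which of these genes differ in level when the fusion is present.

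Cells hold cholesterol within narrow limits by feedback on SREBPs. The SREBP precursors sit in the endoplasmic reticulum with SCAP, which carries them to the Golgi for cleavage when sterols are low, and INSIG proteins hold SCAP back when sterols are high. The released SREBP2 fragment mainly activates genes of cholesterol synthesis and uptake, and SREBP1 mainly genes of fatty acid synthesis. Growing leukaemia cells depend on both products for new membranes.

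Of the 33 genes, 22 rose and 2 fell in the JAZF1-SUZ12 libraries, and 9 were not called (quasi-likelihood test of edgeR, p adjusted by Benjamini-Hochberg over all genes tested, under 0.05). Across all 14750 genes tested, 24.7% were called, 13.3% as higher and 11.4% as lower. The lipid synthesis genes are abundant, and among the 4816 genes with a mean of at least 1000 counts only 8.37% were called higher and 24.7% lower. Of the 28 lipid synthesis genes at that depth, 19 were called higher and 2 lower. The 33 genes and this background were chosen with results of these data known, so these shares are a description and not a test. All 33 passed the filter on low counts, with at least 253 counts in every library. The changes were small. The largest was a rise of 58.9% in MSMO1, and the median log2 fold change of the 33 genes was 0.18, against 0.0032 for all genes tested. On read counts scaled to a common library size by TMM (CPM below), the JAZF1-SUZ12 libraries did not overlap the mock libraries and were higher for 25 of the 33 genes and lower for 5. The same held for 31.0% and 30.3% of all genes tested. The CPM of the 33 genes summed to 10114 and 10281 in mock and to 11592 and 11656 in JAZF1-SUZ12 libraries. The libraries are bulk RNA, so a change in the share of cells that express a gene and a change in RNA per cell cannot be told apart.

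**Figure D1:**
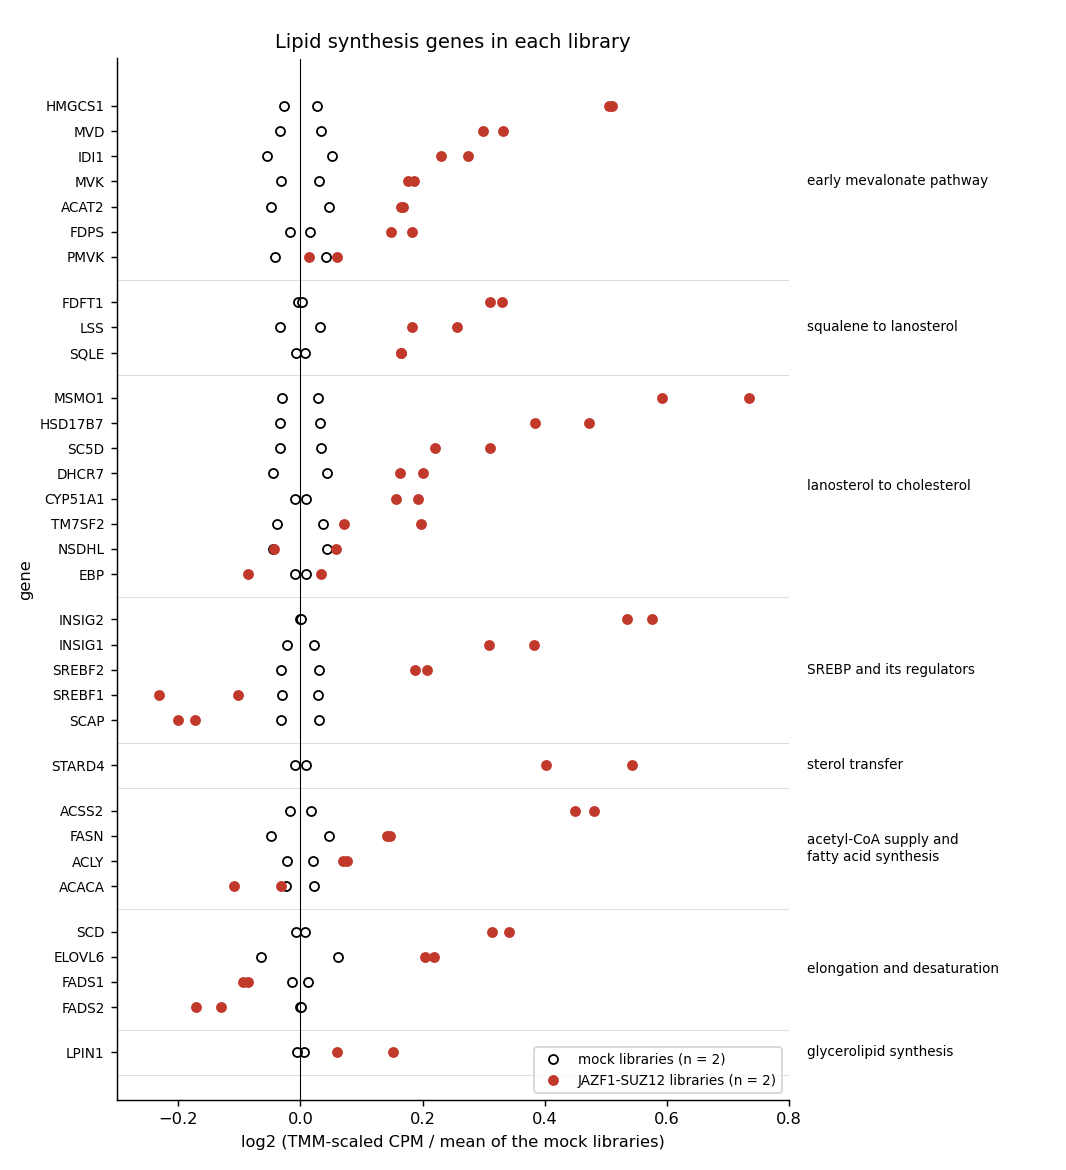
Each row is 1 gene, ordered by role, and each point is 1 library (open, mock, n = 2; filled, JAZF1-SUZ12, n = 2), placed by its log2 ratio of TMM-scaled CPM to the mean of the mock libraries. Most filled points lie to the right of the open ones, whereas those of SREBF1, SCAP, ACACA, FADS1 and FADS2 lie to the left.

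The libraries held between 17260936 and 24423028 estimated counts, with the lowest and the highest total both in the JAZF1-SUZ12 group. Counts of JAZF1 were 12 and 27 for mock and 574 and 731 for JAZF1-SUZ12, and SUZ12 had a log2 fold change of 1.01, as the labels imply. The source label gives uterus, but the cells had the markers of an erythroid line: all 10 such markers passed the count filter, and their CPM summed to 11684 and 11355 in mock and to 13379 and 13006 in JAZF1-SUZ12 libraries. Of these 10 markers, 4 rose (HBG1, HBZ, HBE1 and TFRC), where 13.3% of all genes tested were called higher. Only 2 of 6 endometrial stromal markers passed the filter, with summed CPM from 5.26 to 8.48, and LUM had 0 counts in every library. None of 7 hepatocyte or adipocyte markers passed, with a summed CPM of at most 1.05. Of 5 lymphoid or myeloid markers 2 passed, and the list summed to 40.4 and 35.2 CPM in mock and 27.8 and 28.3 in JAZF1-SUZ12 libraries, with LYZ lower by 0.51 on the log2 scale (edgeR, adjusted p = 0.000692). The part of the erythroid and LYZ changes in the lipid results was not tested.

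The stretches of promoter sequence just before the start of 6 of the genes are shown because SREBPs are known to act on such stretches together with NF-Y, which binds CCAAT. The first 4 genes are examples of enzymes, feedback regulators and sterol carriers that rose, and not the 4 largest changes. For example, ACSS2 and INSIG2, whose stretches are not printed, had log2 fold changes of 0.47 and 0.55, against 0.35 for INSIG1. SREBF2 and SREBF1 encode the SREBPs and were called in opposite directions. The SREBF1 call was lost under 5 of 11 alternative fits, and the SREBF2 call under 1. Each stretch covers the 200 bases before a RefSeq start (positions -200 to -1, GRCh38.p14), 5′ to 3′ on the gene's strand. Capitals mark CCAAT or its reverse complement ATTGG, and the sterol regulatory element core TCACNCCAC.
HMGCS1, chr5:43313413-43313612, minus strand: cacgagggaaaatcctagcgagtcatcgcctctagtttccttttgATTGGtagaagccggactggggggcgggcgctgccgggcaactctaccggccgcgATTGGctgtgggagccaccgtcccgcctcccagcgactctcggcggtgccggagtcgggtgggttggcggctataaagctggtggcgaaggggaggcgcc
MSMO1, chr4:165327469-165327668, plus strand: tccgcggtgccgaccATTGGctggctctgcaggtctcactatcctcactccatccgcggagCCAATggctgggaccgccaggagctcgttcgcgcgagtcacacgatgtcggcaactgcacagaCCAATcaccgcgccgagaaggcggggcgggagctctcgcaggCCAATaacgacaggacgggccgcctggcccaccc
INSIG1, chr7:155297678-155297877, plus strand: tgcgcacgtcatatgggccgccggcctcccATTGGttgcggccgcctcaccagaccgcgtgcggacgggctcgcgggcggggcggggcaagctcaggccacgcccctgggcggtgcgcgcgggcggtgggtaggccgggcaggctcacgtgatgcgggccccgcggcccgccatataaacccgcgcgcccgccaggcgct
STARD4, chr5:111512536-111512735, minus strand: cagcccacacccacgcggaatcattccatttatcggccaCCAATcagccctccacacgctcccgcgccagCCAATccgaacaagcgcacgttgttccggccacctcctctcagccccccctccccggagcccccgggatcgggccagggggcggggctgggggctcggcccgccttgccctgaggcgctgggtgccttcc
SREBF2, chr22:41832905-41833104, plus strand: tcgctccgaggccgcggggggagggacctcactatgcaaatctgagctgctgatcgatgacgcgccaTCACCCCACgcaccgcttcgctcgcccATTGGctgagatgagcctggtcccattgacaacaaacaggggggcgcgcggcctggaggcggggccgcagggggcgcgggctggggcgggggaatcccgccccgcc
SREBF1, chr17:17836987-17837186, minus strand: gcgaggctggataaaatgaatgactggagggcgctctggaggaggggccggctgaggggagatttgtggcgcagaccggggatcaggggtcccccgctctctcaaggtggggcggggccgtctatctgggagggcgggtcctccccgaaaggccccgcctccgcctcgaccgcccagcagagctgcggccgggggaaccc

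In these stretches MSMO1 had 4 CCAAT matches, HMGCS1 and STARD4 had 2 each, INSIG1 and SREBF2 had 1 each, and SREBF1 had none. The 200 bases before another RefSeq start of HMGCS1 (chr5:43313182-43313381, minus strand), not printed, had 0 matches. The match to the sterol element core in SREBF2 began at position -133. The RefSeq table has windows of 300 bases (250 before and 50 after a start) for 29 of the 33 genes, 42 windows in all. ACAT2, FDFT1, SQLE and FASN were not matched. On either strand, CCAAT was found in 21 of the 29 genes (72.4%), against 39.7% of all 27305 genes of the table. By window, the shares were 59.5% of 42 and 34.6% of 35116. Of the 18 genes that rose and had a window, 15 held CCAAT, and INSIG2, ELOVL6 and CYP51A1 did not. Of the 11 others, 6 held it. The SP1 letters GGGCGG were in 28 of the 29 genes (96.6%) and in 48.3% of all genes, and the E-box CACGTG was in 4 of 29 (INSIG1, LSS, SC5D and SCAP; 13.8%) and in 8.77%. TCACNCCAC was found in SREBF2 alone of the 29, and in 1.39% of all genes. Of 153 matches to the 4 exact motifs in these windows, 0 overlapped a match to another motif. All 29 genes passed the count filter, whereas the 27305 genes of the table were not limited to genes that did. The shares were not compared with genes of like expression. A match is a description of the letters, not a site shown to be bound.

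**Figure D2:**
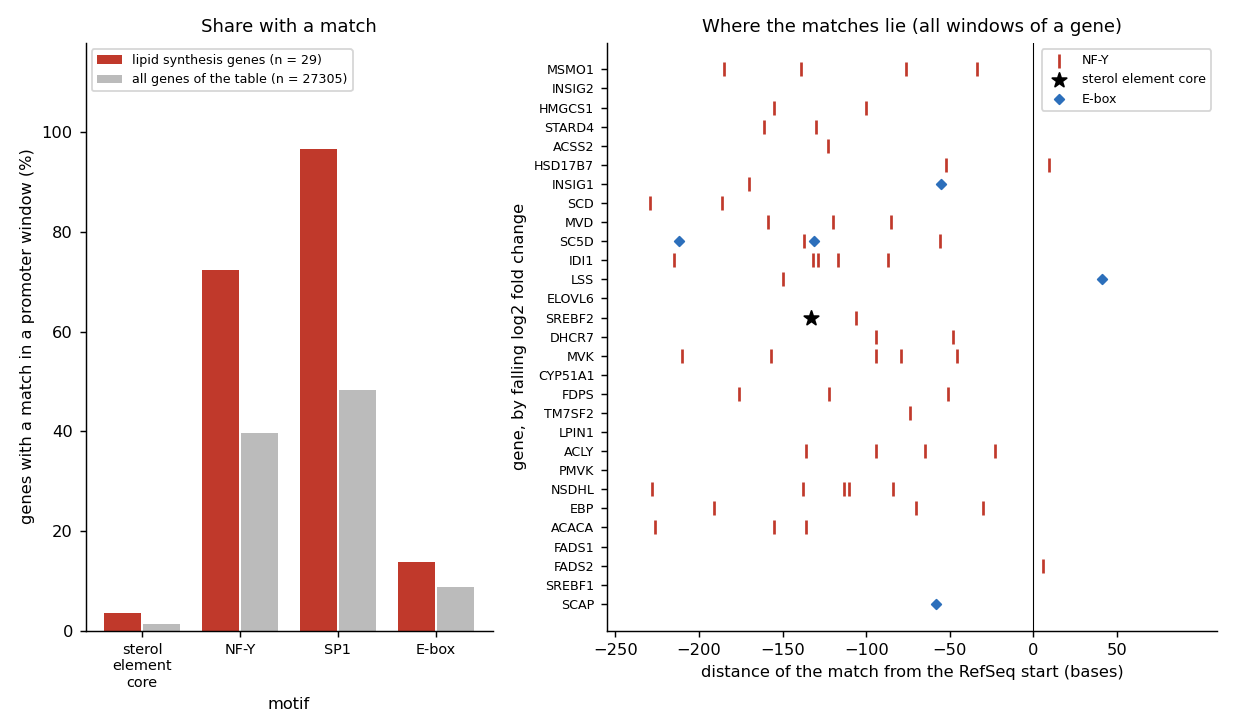
Left, bars give the percentage of genes with at least 1 match in a RefSeq promoter window, for 29 lipid synthesis genes and for all 27305 genes of the table; CCAAT (NF-Y) was in 72.4% and 39.7%. Right, each mark is a match placed by its distance in bases from the start, with genes ordered from the highest to the lowest log2 fold change; a gene with several starts shows its matches from each of them.

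Enzymes of sterol synthesis rose almost throughout the route from acetyl-CoA to cholesterol. Of 18 enzymes, 14 rose and 0 fell, and their CPM summed to 3507 and 3521 in mock and 4208 and 4226 in JAZF1-SUZ12 libraries. The early mevalonate pathway, which builds isoprenoid units, had 6 of 7 members higher. HMGCS1 (ENSG00000112972; GRCh38 chromosome 5, 43289395 to 43313512, minus strand), which makes HMG-CoA, had 469 and 487 CPM in mock and 678 and 681 in JAZF1-SUZ12 libraries. Its groups lay far apart relative to the spread within them, and its log2 fold change was 0.51 (SE 0.04; edgeR, adjusted p = 3.00e-07). MVD, which turns mevalonate pyrophosphate into isopentenyl pyrophosphate, had 195 and 187 CPM in mock and 235 and 241 in JAZF1-SUZ12 libraries (log2 fold change 0.32, SE 0.05; edgeR, adjusted p = 0.000156). IDI1, the isomerase of that product, had 244 and 227 CPM in mock against 276 and 285 (log2 fold change 0.25, SE 0.05; edgeR, adjusted p = 0.00125). In both genes the lowest JAZF1-SUZ12 library exceeded the highest mock library, as in 31% of all genes tested.

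The other members of the early pathway changed less. FDPS, which joins isoprenoid units into farnesyl pyrophosphate, had 296 and 302 CPM in mock and 339 and 331 in JAZF1-SUZ12 libraries (log2 fold change 0.17, SE 0.04; edgeR, adjusted p = 0.0115). ACAT2, the cytosolic thiolase at the entry of the pathway, had 218 and 204 CPM in mock and 237 in both JAZF1-SUZ12 libraries (log2 fold change 0.17; edgeR, adjusted p = 0.0188). MVK, mevalonate kinase, had 51.1 and 53.4 CPM in mock and 59.5 and 59.0 in JAZF1-SUZ12 libraries (log2 fold change 0.18; edgeR, adjusted p = 0.0448). Each of these 3 calls was lost in at least 1 of the fits that leave out a library. ACAT2 was at 0.11 without mock replicate 2 (adjusted p = 0.248) and FDPS at 0.14 without mock replicate 1 (adjusted p = 0.104). MVK lost its call whichever of the 4 libraries was left out (log2 fold change from 0.14 to 0.20, adjusted p from 0.0874 to 0.253) and with DESeq2 (0.194) or no filter on low counts (0.0684), over 11 alternatives ranging from 0.0205 to 0.253. PMVK, phosphomevalonate kinase, was the least abundant member of the pathway, at 13.7 and 14.5 CPM in mock and 14.7 and 14.2 in JAZF1-SUZ12 libraries. Its groups overlapped, with a log2 fold change of 0.03 (SE 0.12; edgeR, adjusted p = 0.865). ACAT2 and MVK each overlap another gene on the opposite strand (TCP1 and MMAB), and the sources used here do not say whether strand was used in counting.

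The 3 enzymes from farnesyl pyrophosphate to lanosterol all rose, where 13.3% of all genes tested were called higher. FDFT1, squalene synthase, had 425 and 427 CPM in mock and 528 and 535 in JAZF1-SUZ12 libraries (log2 fold change 0.32, SE 0.04; edgeR, adjusted p = 3.70e-05). LSS, the cyclase that forms lanosterol, had 218 and 228 CPM in mock and 253 and 266 in JAZF1-SUZ12 libraries (log2 fold change 0.22, SE 0.05; edgeR, adjusted p = 0.00305). SQLE, squalene epoxidase and a rate-limiting step of the route, had 394 and 389.7 CPM in mock and 439 in both JAZF1-SUZ12 libraries (log2 fold change 0.16, SE 0.04; edgeR, adjusted p = 0.00871). All 3 showed no overlap between groups, as did 31% of all genes tested with JAZF1-SUZ12 higher. SQLE was at 0.15 and was not called without mock replicate 2.

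The last steps, from lanosterol to cholesterol, were uneven. Of 8 enzymes 5 rose and 3 were not called, where 13.3% of all genes tested were called higher. MSMO1 (ENSG00000052802; chromosome 4, 165327623 to 165343160, plus strand), which removes methyl groups at carbon C4 of the sterol ring, had the largest change of the 33 genes. It had 104 and 100.2 CPM in mock and 154 and 170.2 in JAZF1-SUZ12 libraries (log2 fold change 0.67, SE 0.06; edgeR, adjusted p = 4.89e-07). HSD17B7, a ketoreductase that acts after MSMO1 in the same removal, had 21.1 and 22.0 CPM in mock and 29.9 and 28.1 in JAZF1-SUZ12 libraries (log2 fold change 0.43, SE 0.09; edgeR, adjusted p = 0.00195). NSDHL, the decarboxylase that acts between them, had 66.0 and 70.2 CPM in mock and 66.1 and 70.9 in JAZF1-SUZ12 libraries. Its groups overlapped (log2 fold change 0.01, SE 0.06; edgeR, adjusted p = 0.919), so the 3 enzymes of this one removal did not all change. HSD17B7 has a pseudogene, HSD17B7P2, with a mean of 11.79 counts per library, to which some of its reads could be assigned.

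CYP51A1, the demethylase that opens this part of the route, had 245 and 241 CPM in mock and 278 and 271 in JAZF1-SUZ12 libraries (log2 fold change 0.17; edgeR, adjusted p = 0.00921). CYP51A1 overlaps AC000120.3 on the same strand by 3030 bases (mean of 135.7 counts), so some of its reads are uncertain. SC5D, the C5 desaturase, had 36.9 and 38.7 CPM in mock and 46.9 and 44.0 in JAZF1-SUZ12 libraries (log2 fold change 0.26; edgeR, adjusted p = 0.0126). DHCR7, which reduces 7-dehydrocholesterol to cholesterol, had 308 and 328 CPM in mock and 365 and 356 in JAZF1-SUZ12 libraries (log2 fold change 0.18; edgeR, adjusted p = 0.00876). None of these 3 overlapped between groups, as was so, with JAZF1-SUZ12 higher, for 31% of all genes tested. Each lost its call when 1 library was left out. CYP51A1 was at 0.15 without mock replicate 2 (adjusted p = 0.0735) and DHCR7 at 0.13 without mock replicate 1 (adjusted p = 0.135). SC5D was at 0.22 without mock replicate 1 (adjusted p = 0.0891), at 0.21 without JAZF1-SUZ12 replicate 1 (adjusted p = 0.0684), and not called with DESeq2 (adjusted p = 0.0756). TM7SF2, a sterol C14 reductase, had 36.1 and 38.1 CPM in mock and 39.0 and 42.6 in JAZF1-SUZ12 libraries and was not called (log2 fold change 0.14, SE 0.07; edgeR, adjusted p = 0.187). EBP, the sterol isomerase, had 167 and 164 CPM in mock and 169 and 156 in JAZF1-SUZ12 libraries, with the mock values inside the range of the others (log2 fold change -0.03, SE 0.05; edgeR, adjusted p = 0.757).

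The SREBPs and the proteins that hold or carry them split in direction, with 3 higher and 2 lower. INSIG1 (ENSG00000186480; chromosome 7, 155297776 to 155310235, plus strand), which retains SCAP in the endoplasmic reticulum and is itself a known SREBP target, had 529 and 513 CPM in mock and 645 and 679 in JAZF1-SUZ12 libraries. Its log2 fold change was 0.35 (SE 0.04; edgeR, adjusted p = 2.60e-05). INSIG2, which has the same role, had 15.8 CPM in both mock libraries and 23.5 and 22.9 in JAZF1-SUZ12 libraries (log2 fold change 0.55, SE 0.10; edgeR, adjusted p = 0.000643). Both retention factors were thus higher in each JAZF1-SUZ12 library than in either mock library, as were 31% of all genes tested. Per transcript length, INSIG1 stood at 420.3 TPM (transcript level scaled by length) in mock and INSIG2 at 12.0, so the retention factor with the larger log2 fold change was the scarcer of the pair.

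SREBF2, which encodes SREBP2, had 254 and 265 CPM in mock and 295 and 299.7 in JAZF1-SUZ12 libraries (log2 fold change 0.20, SE 0.05; edgeR, adjusted p = 0.00453). SREBF1, which encodes SREBP1, went the other way, with 169 and 177 CPM in mock and 147 and 161 in JAZF1-SUZ12 libraries (log2 fold change -0.16, SE 0.05; edgeR, adjusted p = 0.0371). SCAP, the escort of both, had 148 and 154 CPM in mock and 134 and 131 in JAZF1-SUZ12 libraries (log2 fold change -0.19, SE 0.05; edgeR, adjusted p = 0.0131). None of these 3 overlapped between groups, as was so for 31% (JAZF1-SUZ12 higher) and 30.3% (lower) of all genes tested. Each call was lost in at least 1 of the fits that leave out a library. SREBF2 was at 0.16 without mock replicate 1 (adjusted p = 0.0690), and SCAP at -0.17 without mock replicate 2 (adjusted p = 0.0762). The SREBF1 call was lost without mock replicate 2 (log2 fold change -0.14, adjusted p = 0.136), without JAZF1-SUZ12 replicate 1 (-0.11, adjusted p = 0.195), with total counts only (-0.14, adjusted p = 0.0738), with DESeq2 (-0.17, adjusted p = 0.0619) and with a filter at a mean of 50 counts (-0.14, adjusted p = 0.0596). Over the 11 alternatives its adjusted p ranged from 0.00287 to 0.195. SREBF1 also overlaps RAI1 on the opposite strand.

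STARD4 (ENSG00000164211; chromosome 5, 111496033 to 111512590, minus strand), a soluble carrier that moves cholesterol between membranes, had 114 and 115 CPM in mock and 152 and 167 in JAZF1-SUZ12 libraries. Its log2 fold change was 0.48 (SE 0.06; edgeR, adjusted p = 1.43e-05), and it was called under each of the 11 alternatives.

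Genes of fatty acid synthesis, elongation and desaturation were mixed: 4 of 8 rose and 4 were not called. Among all genes tested, 13.3% were called higher. The median log2 fold change of the 8 genes was 0.11, whereas the median of the 18 sterol enzymes was 0.18. The difference between these branches was not tested. ACSS2 (ENSG00000131069; chromosome 20, 34872146 to 34927962, plus strand), which makes acetyl-CoA from acetate, rose most, from 220.3 and 215 CPM in mock to 298 and 304 in JAZF1-SUZ12 libraries (log2 fold change 0.47, SE 0.04; edgeR, adjusted p = 1.69e-06). ACLY, which makes acetyl-CoA from citrate, had 531 and 547 CPM in mock and 569 and 566 in JAZF1-SUZ12 libraries and was not called (log2 fold change 0.07, SE 0.04; edgeR, adjusted p = 0.215). ACACA, the carboxylase that forms malonyl-CoA, had 247 and 255 CPM in mock and 245 and 233 in JAZF1-SUZ12 libraries (log2 fold change -0.07, SE 0.05; edgeR, adjusted p = 0.301). Among ACSS2, ACLY and ACACA, only ACSS2 was called. It overlaps GGT7 on the opposite strand by 715 bases.

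FASN, fatty acid synthase, was the most abundant of the 33 genes by CPM, with 1473 and 1571 in mock and 1679 and 1685 in JAZF1-SUZ12 libraries (log2 fold change 0.14, SE 0.04; edgeR, adjusted p = 0.0181). Leaving out mock replicate 1, the lower of the mock libraries, gave 0.090 and an adjusted p of 0.230. SCD (ENSG00000099194; chromosome 10, 100347124 to 100364834, plus strand), the desaturase that makes oleate and palmitoleate, had 1280 and 1292 CPM in mock and 1630 and 1598 in JAZF1-SUZ12 libraries. Its log2 fold change was 0.33 (SE 0.04; edgeR, adjusted p = 1.47e-05), and per transcript length it was the highest of the 33 genes in the JAZF1-SUZ12 libraries, at 738 TPM against 582 in mock. ELOVL6, which extends palmitate to stearate, had 133 and 122 CPM in mock and 147 and 149 in JAZF1-SUZ12 libraries (log2 fold change 0.21, SE 0.05; edgeR, adjusted p = 0.00930). Without mock replicate 2 it was at 0.14, with an adjusted p of 0.158.

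FADS1 and FADS2, the desaturases that make polyunsaturated fatty acids, had lower values in both JAZF1-SUZ12 libraries and were not called. FADS1 had 1323 and 1347 CPM in mock and 1251 and 1257 in JAZF1-SUZ12 libraries (log2 fold change -0.09, SE 0.04; edgeR, adjusted p = 0.103). It was called lower with the replicate number as a block (adjusted p = 0.0469) and with no filter on low counts (adjusted p = 0.0443). FADS2 had 58.8 and 58.9 CPM in mock and 52.3 and 53.8 in JAZF1-SUZ12 libraries (log2 fold change -0.15, SE 0.06; edgeR, adjusted p = 0.0920). The annotated spans of this pair overlap by 29694 bases on opposite strands, and FADS2 also overlaps FEN1, so reads of the scarcer FADS2 are uncertain. LPIN1, a phosphatidate phosphatase of glycerolipid synthesis, had 112 and 111 CPM in mock and 116 and 124 in JAZF1-SUZ12 libraries and was not called (log2 fold change 0.11, SE 0.05; edgeR, adjusted p = 0.159).

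**Figure D3:**
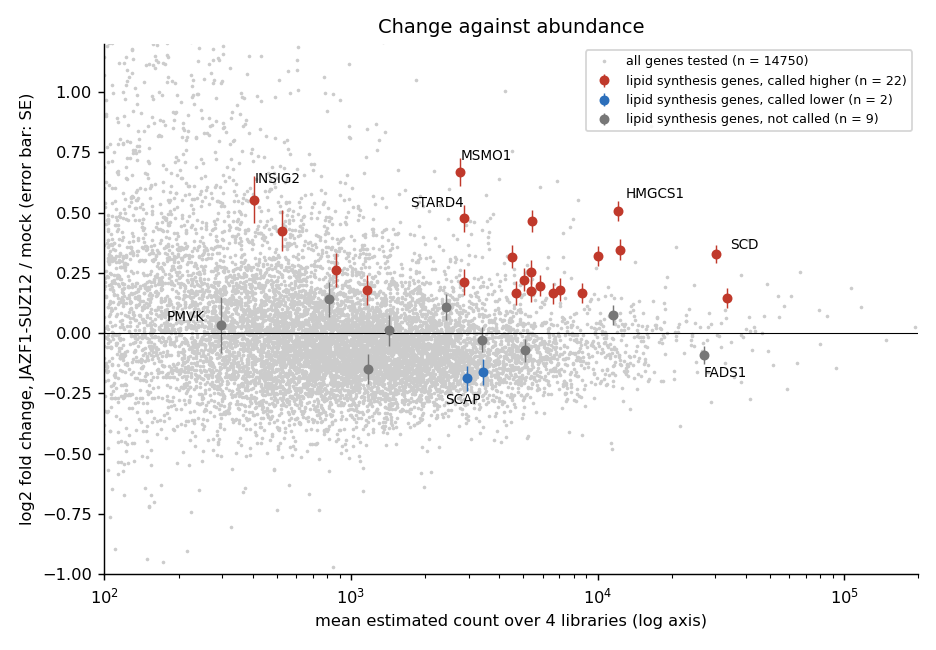
Each grey point is 1 of 14750 genes tested, placed by its mean estimated count over 4 libraries (log axis) and its log2 fold change; points outside the axes (under 100 counts or a change beyond the range drawn) are not shown. Coloured points are the 33 lipid synthesis genes with their standard error, and 22 of them were called higher and 2 lower.

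The log2 fold change, taken with its sign, did not follow abundance among the 33 genes. The correlation of the log2 fold change with the log2 mean count was -0.02 (Pearson) and 0.05 (Spearman) over the 33 genes, which share the same 4 libraries. Per transcript length, mock levels ran from 12.0 TPM for INSIG2, followed by HSD17B7 and then PMVK at 26.7, up to 431 for FASN, 582 for SCD and 716 for FADS1. Genes that rose were found at both ends of that order, and so were genes that were not called.

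Of the 24 calls, 12 held under every one of 11 alternatives, all of them higher: HMGCS1, MVD, IDI1, FDFT1, LSS, MSMO1, HSD17B7, INSIG1, INSIG2, STARD4, ACSS2 and SCD. The other 12 were lost under at least 1 alternative. Leaving out 1 library left between 17 and 23 genes called, with 17 without mock replicate 2, where no gene was called lower, and 18 without mock replicate 1. In those fits the lone library of a group is assumed to vary like the other group.

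In the authors' deposited table, 13 of the 33 genes were called higher and 0 lower at an adjusted p under 0.05, against 4.93% and 3.57% (8.5% in either direction) of its 15895 genes with an adjusted p. All 13 were also called higher from the counts. They were HMGCS1, MVD, IDI1, FDFT1, LSS, MSMO1, SREBF2, INSIG1, INSIG2, STARD4, ACSS2, FASN and SCD. The log2 fold change in the authors' deposited table was within 0.1 of that from the counts for 27 of the 33 genes, for example 0.52 for HMGCS1 and 0.68 for MSMO1 on the log2 scale. It differed most for ELOVL6, SREBF1 and FADS2, to which the authors' deposited table gives log2 fold changes of 0.0042, -0.0040 and 0.0095. For FASN the authors' deposited table has 0.28, against 0.14 from the counts. The sign differed from that of the counts for 3 genes, none of them called in the authors' deposited table. The cause of these differences was not tested.

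**Figure D4:**
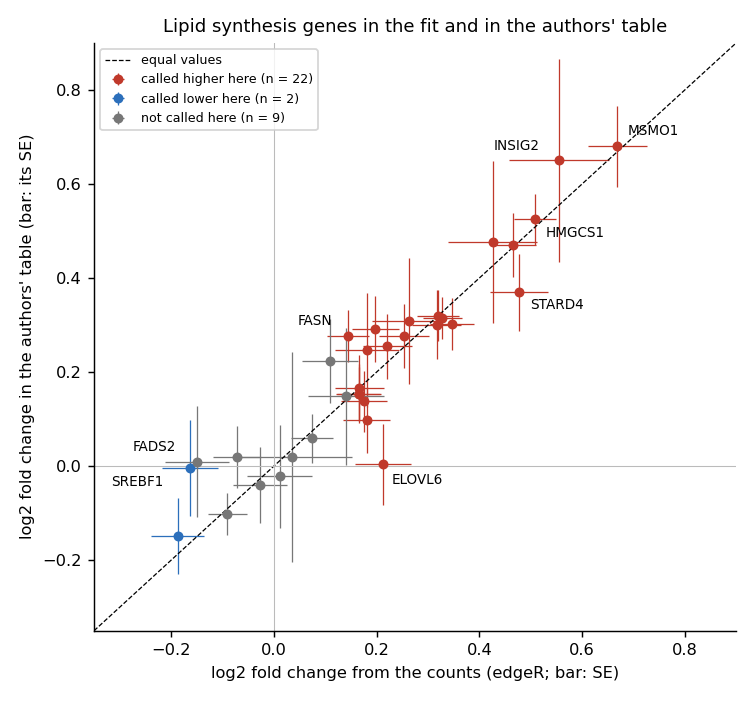
Each point is 1 of the 33 genes, with its log2 fold change from the counts (edgeR, bar: standard error) against that in the authors' deposited table (bar: the standard error given there), and the dashed line marks equal values. ELOVL6, SREBF1 and FADS2 lie near 0 in the authors' deposited table, and MSMO1 is at 0.67 from the counts and 0.68 in that table.

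Other steps of lipid metabolism were examined in 7 lists of 120 genes, of which 114 could be tested. Of these, 13 were called higher and 15 lower, or 24.6%, close to the 24.7% of all genes, and their median log2 fold change was -0.03. Genes of SREBP processing and export from the endoplasmic reticulum had 0 of 15 higher and 5 lower (33.3%), with a median of -0.10, where 11.4% of all genes and 24.7% of those averaging 1000 counts or more were called lower. ERLIN1, a membrane protein known to restrain SREBP activation, fell from 27.3 and 24.6 to 18.9 and 19.2 CPM, and its log2 fold change was -0.44 (edgeR, adjusted p = 0.00253). SEC23B, SEC24A and SAR1A, parts of the COPII coat that buds vesicles, had log2 fold changes of -0.26, -0.22 and -0.22 (edgeR, adjusted p = 0.00934, 0.0146 and 0.00549). SAR1B, the other GTPase of that coat, was at -0.28 (edgeR, adjusted p = 0.0149) and is named, like the other called genes outside the naming rule, after its value was seen. SEC23B was at -0.19 without JAZF1-SUZ12 replicate 2 (adjusted p = 0.129). SEC24A was at -0.19 without JAZF1-SUZ12 replicate 1 (adjusted p = 0.0579) and at -0.20 without mock replicate 1 (adjusted p = 0.0742), and with DESeq2 its adjusted p was 0.0560.

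Branches that draw on the isoprenoids of the mevalonate pathway had 0 of 13 higher and 3 lower, with a median of -0.12. The 23.1% called lower compare with 11.4% of all genes and 24.7% of genes with a mean of at least 1000 counts. ZMPSTE24, a protease that trims prenylated proteins, and NUS1, a subunit of the dolichol-forming transferase, were at -0.26 and -0.19 (edgeR, adjusted p = 0.00986 and 0.0132). ZMPSTE24 was at -0.18 without JAZF1-SUZ12 replicate 2 (adjusted p = 0.133) and NUS1 at -0.17 without mock replicate 1 (adjusted p = 0.0862).

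Of 13 genes of sterol uptake, transfer and storage 1 was higher and 1 lower (15.4% called), and of 8 genes of the LXR pathway, which drives efflux, 1 was higher and 1 lower (25.0%), against 24.7% called among all genes. NPC2, a lysosomal cholesterol carrier, rose from 14.2 and 12.2 to 18.1 and 19.3 CPM (log2 fold change 0.50; edgeR, adjusted p = 0.00503). OSBP, an oxysterol-binding exchanger, was at -0.16 (edgeR, adjusted p = 0.0485) and lost its call without any 1 of 3 libraries, JAZF1-SUZ12 replicate 1 and either mock replicate (adjusted p = 0.233, 0.115 and 0.101), and with total counts only (0.0939), DESeq2 (0.115) or a filter at a mean of 50 counts (0.0813). MYLIP, a ubiquitin ligase induced by LXR, was at 0.25 on the log2 scale (edgeR, adjusted p = 0.00911), and 0.22 without mock replicate 1 (adjusted p = 0.0756), and its adjusted p with DESeq2 was 0.0514. LPCAT3, a phospholipid acyltransferase induced by LXR, was at -0.23 (edgeR, adjusted p = 0.0335) and lost its call without JAZF1-SUZ12 replicate 2 (0.173), mock replicate 1 (0.115) or mock replicate 2 (0.0525), and with total counts only (0.0570), DESeq2 (0.182) or a filter at a mean of 50 counts (0.0510). ABCA1, the main cholesterol exporter, had between 2 and 9 counts and was not tested.

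**Figure D5:**
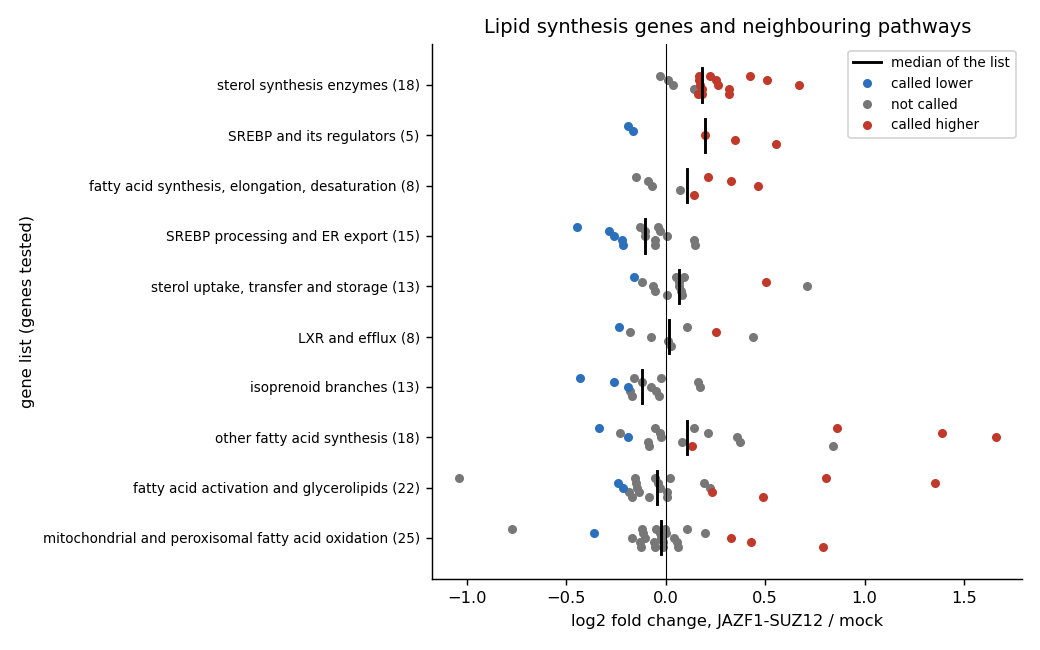
Each point is 1 tested gene, placed by its log2 fold change and coloured by its call, for 3 groups of the lipid synthesis genes (top) and 7 related lists; the vertical bar is the median of the list, and the number tested is in brackets. The sterol enzymes have a median of 0.18 with no member called lower, and genes of SREBP processing have a median of -0.10 with no member called higher.

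Among other genes of fatty acid synthesis, 4 of 18 rose and 2 fell (33.3% called, against 24.7% of all genes), and the largest changes were in scarce isoforms. ELOVL2, an elongase of polyunsaturated fatty acids, rose from 3.05 and 3.75 to 10.9 and 10.6 CPM (log2 fold change 1.66; edgeR, adjusted p = 6.36e-06). SCD5, a desaturase related to SCD, rose from 1.38 and 1.09 to 3.43 and 3.06 CPM (log2 fold change 1.39; edgeR, adjusted p = 0.00544). ACACB, the mitochondrial counterpart of ACACA, rose from 5.76 and 6.26 to 11.7 and 10.3 CPM (log2 fold change 0.86; edgeR, adjusted p = 0.000910). FADS3, next to FADS1 and FADS2 on chromosome 11, fell from 154 and 158 to 117 and 129.8 CPM (log2 fold change -0.34; edgeR, adjusted p = 0.000431). Also called were SLC25A1, the mitochondrial citrate carrier, at 0.13 and HACD3, a dehydratase of fatty acid elongation, at -0.19 (edgeR, adjusted p = 0.0314 and 0.00952). SCD5 and ACACB, named because they were called, rose more on the log2 scale than the abundant enzymes of the same steps, SCD and ACACA. Other scarce genes of this list were not called: ELOVL3 at 0.84, HACD1 at -0.23 and HACD2 at -0.05. These differences between isoforms were not tested.

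Of 22 genes of fatty acid activation and glycerolipid synthesis 4 rose and 2 fell (27.3% called), and of 25 genes of fatty acid oxidation 3 rose and 1 fell (16%), against 24.7% called among all genes. ACSL6, an acyl-CoA synthetase, rose from 5.37 and 7.02 to 14.4 and 17.1 CPM (log2 fold change 1.35; edgeR, adjusted p = 1.32e-05). ACSL3, a more abundant synthetase of lipid droplets, and AGPAT4, an acyltransferase, had log2 fold changes of 0.23 and 0.49, and PLIN3, a coat protein of lipid droplets, was at -0.24 (edgeR, adjusted p = 0.00257, 0.000757 and 0.00485). DGAT2, which forms triglyceride, and PLIN2, another coat protein of lipid droplets, were at 0.81 and -0.21 (edgeR, adjusted p = 0.0117 and 0.0484). The calls of related genes outside the naming rule, such as DGAT2 and PLIN2, were not followed over the alternatives. In oxidation, the nuclear receptors PPARD and PPARA rose by 0.33 and 0.43 and CPT1B, a carnitine transferase, by 0.79 on the log2 scale, and SLC25A20, the carnitine carrier, was at -0.36 (edgeR, adjusted p = 0.00141, 0.00657, 0.0468 and 0.0157). CPT1B was at 0.51 without JAZF1-SUZ12 replicate 1 (adjusted p = 0.315) and 0.61 without mock replicate 2 (0.170), and PPARA at 0.35 without mock replicate 2 (0.0521). With DESeq2 the adjusted p was 0.148 for CPT1B and 0.0948 for SLC25A20, and with limma-voom 0.0666 for CPT1B.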

How the data were processed

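The authors deposited estimated counts per gene, which they called raw, for 4 libraries. The share of values that are not whole is 35.0% to 38.4% per library. Per the submitters' processing notes, kallisto 0.46.2, fastp 0.20.1, DESeq2 1.30.1 and build hg38 were used. The annotation is not given in the sources used here. The authors' deposited table has the column names of DESeq2: a mean signal of normalized counts, a log2 fold change with its standard error, a score (the test statistic) and a p-value with its adjusted value, per the file headers. Here the estimated counts were rounded, because the design had assumed whole counts, filtered with edgeR's filterByExpr, scaled by TMM and tested with the edgeR 4.0.16 quasi-likelihood F test in R 4.3.3, group only, two-sided, with adjustment over all 14750 genes. The standard error was taken as the log2 fold change over the root of F. CPM gives counts per 1000000 of the TMM-scaled library size of the filtered genes. TPM values use the longest GENCODE 29 transcript, found for 35410 of 35606 IDs. Gene positions are those of GENCODE 29, all 33 genes matched, and promoter windows are those of RefSeq. The genes and lists were chosen with earlier results of these data known. The text names all 33 genes and, of each related list, the 4 called genes with the smallest p-values and the called gene with the largest change. A called gene that this rule also selects is not reported here. The fits were tested on simulated data. Alternatives were other scalings, filters and thresholds, DESeq2 1.42.0, limma-voom (limma 3.58.1), the replicate number as a block, and leaving out each library. The background of genes with a mean of at least 1000 counts was chosen after the data were seen. Only 2 libraries per group limit the precision.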

Additional observations from a re-analysis of the deposited data

How the results depend on the processing

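The median log2 fold change of the 33 genes was 0.18, and 0.20 with total counts only and with a filter at a mean of 50 counts. The number called higher was 22 and stayed between 20 and 22 over the other scalings, tests and filters. The 2 genes called lower became 1 with total counts only, 1 with DESeq2 and 1 over genes with a mean of at least 50 counts. At an adjusted p under 0.01, 17 of the 33 genes were called, 17 higher and 0 lower. Over all genes, 3643 became 2407 with DESeq2 and 2045 at that threshold. The 1955 called higher became 1255 at that threshold, and the 1688 called lower became 1051 with DESeq2 and 790 at that threshold. Of the related lists, 28 genes called became 18 and 15 called lower became 8 at that threshold. The threshold lowers counts by construction. For the others, the cause was not tested. Leaving out each library gave between 17 and 23 of the 33 genes, 16 to 21 of them higher and 0 to 2 lower, with a median from 0.16 to 0.19. In those fits all genes called numbered 2568 to 3782, 1498 to 1841 higher and 1070 (without JAZF1-SUZ12 replicate 2) to 1941 lower, and related-list genes 20 to 31, 11 to 15 higher and 9 (without mock replicate 1) to 17 lower. Signs changed for 3 genes that were not called: PMVK ranged from -0.014 (without mock replicate 1) to 0.065 over the libraries left out, NSDHL from -0.044 (without JAZF1-SUZ12 replicate 2; -0.040 without mock replicate 1) to 0.053, and EBP from -0.090 to 0.033 (without JAZF1-SUZ12 replicate 2).

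A block on replicate number gave 4061 called genes, 3618 of them among the 3643, and 25 of the 33, which include all 24 and FADS1. Libraries of one number showed no shared deviation (the correlation over 14750 genes of replicate 1 minus replicate 2 between the groups was -0.00072). The labels do not say whether the numbers pair the libraries. This correlation, in which scarce genes weigh as much as abundant ones, cannot settle it, so the block is only a check. PMVK, the gene with the fewest counts, had a standard error of 0.12, so a change of the size seen in most of the 33 genes could not be told from 0 there.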

Other observations

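FADS1, FADS2 and FADS3 lie side by side on chromosome 11, between 61792980 and 61892051 (GENCODE 29), and all 3 had lower values in the JAZF1-SUZ12 libraries. Their protein-coding neighbours that could be tested within 250000 bases, examined after the FADS values were seen, did not share a direction. FEN1, a DNA replication nuclease that overlaps FADS2, was lower by 0.27 on the log2 scale (edgeR, adjusted p = 0.000533). On the other flank of FEN1, TMEM258 was at -0.0068 (adjusted p = 0.953) and MYRF, a transcription factor of myelin genes, was at 0.23 (adjusted p = 0.0113). Further out, SYT7 and DAGLA, both with under 100 counts, had log2 fold changes of 2.50 and 1.11 (edgeR, adjusted p = 1.57e-05 and 0.0279). On the FADS3 side, RAB3IL1 was at -0.074 (adjusted p = 0.493) and FTH1, ferritin heavy chain, at -0.0051 (adjusted p = 0.945). BEST1 and INCENP, farther on that side, were at 0.25 and -0.14 (edgeR, adjusted p = 0.607 and 0.0564).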
